A study of Oryza sativa with 6 samples.

Results

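Wall-loosening genes of rice roots were described in 4 families whose products cut, rejoin or loosen the polysaccharides of the growing cell wall. The genes were taken from the authors' annotation: a description containing "xyloglucan endotransglucosylase" (XTH, 30 genes), one beginning with "Endoglucanase" (21 genes) or "Beta-galactosidase" (13 genes), or one containing "expansin" (6 genes). This gave 70 of the 40745 rice gene models listed, and no gene met more than 1 rule. Any genes of these families that are described in other words are left out. Counts, shares and sums below therefore cover the matched genes, not whole families. Of the 70, 52 reached the level needed for testing, which was 1 TPM or more in at least 3 of 6 libraries. TPM is transcript abundance scaled for transcript length and for the total of its library.

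The libraries came from roots of wild-type rice (Oryza sativa; no cultivar is given) grown in a greenhouse with 12 h of light at 30 °C and darkness at 28 °C. All plants were under 10 µM cadmium (Cd). The group called Cd received Cd alone (3 libraries), and the group called Fo+Cd received Cd with 0.5% Fo10 (3 libraries). Not stated in the labels are the nature of Fo10, the age of the plants, the length of the treatment, and whether the replicates were separate cultures. P-values therefore measure the spread between these libraries, which may be technical. No library without Cd is among the samples, so the values describe a difference between 2 groups that both carry Cd.

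XTHs cut xyloglucan, a hemicellulose that lies along cellulose microfibrils, and join the cut end to another xyloglucan chain or to water. Plant endoglucanases hydrolyse beta-linked glucans, and membrane-bound members are needed for normal cellulose synthesis. Beta-galactosidases trim galactose from xyloglucan side chains and from pectic galactan. Expansins loosen the bonds between wall polysaccharides at acidic pH without hydrolysing them, and are best known for their part in cell elongation, in roots as in shoots. Grass walls hold less xyloglucan than those of most other flowering plants.

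Levels are the authors' values, which were recognised as TPM from the values, since the column names give no unit. TPM is scaled per transcript length, so on that reading genes may be compared with each other. The number of reads behind a value is unknown. Each library summed to 963281 to 966767 TPM, and 24954 to 25793 features were above 0. As a check of the tissue, 4 of 4 Casparian strip membrane proteins, markers of the root endodermis, were detected. Of 27 photosynthesis genes, markers of the shoot, 7 reached the level for testing, and their summed level was 24.5 to 26.9 TPM in Cd and 23.6 to 33.2 TPM in Fo+Cd. Histones and a B-type cyclin, markers of dividing cells (43 of 49 at the level for testing, 6 at 0), summed to 13177 to 13365 TPM in Cd and 11919 to 14171 TPM in Fo+Cd. Of all tested features, 10.0% were lower in Fo+Cd without overlap between the groups. So was the summed level of the Casparian strip genes, at 209 to 240 TPM in Cd and 181 to 193 TPM in Fo+Cd. Their part in the results below was not tested. In whole roots, fewer cells of a type and less RNA per cell cannot be told apart.

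The comparison of Fo+Cd with Cd asks which of these transcripts differ when Fo10 is given along with Cd. XTH, endoglucanase and expansin genes each held members that were lower in Fo+Cd. No member of any family was called higher. The 4 genes called were the XTHs BGIOSGA027399 and BGIOSGA022835, the endoglucanase BGIOSGA021541 and the expansin EXPA4. They fell by factors of 1.61 to 5.68 in mean TPM. None of the beta-galactosidases was called in limma (1 of 8 had an unadjusted p under 0.05).

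A gene was called at an adjusted p under 0.05 in limma on log2(TPM + 1), with Benjamini-Hochberg adjustment over all 21166 features tested. On this scale fold changes of genes near 1 TPM are understated. Of the 52 tested members, 4 were called lower, or 7.69%, where 0.723% of all tested features were called lower. With 1 library left out that background was 0.194% (without Cd replicate 3) to 1.77% (without Cd replicate 2). None was called higher, where 1.72% of all features were (2.45% in either direction). The difference was negative in 42 of 52 members (80.8%) and in 49.6% of all features. The Fo+Cd libraries all lay below the Cd libraries in 16 members (30.8%, against 10.0% of all features), and all above them in 1 (1.92%, against 11.3%). The median log2 fold change was -0.22 over tested members and 0.00254 over all features. These shares are descriptions, since members of a family are not independent of each other. The families were also chosen with earlier results of these data known, so the shares are not those of an unselected set. A single tested member, the XTH BGIOSGA023533, passed the level filter through the Cd libraries alone. Without it, 41 of 51 were negative and the median was -0.21. BGIOSGA023533 is also counted among the 16 members whose Fo+Cd libraries all lay below the Cd libraries. The 4 calls were also sensitive to single libraries. Without Cd replicate 3 none of the 4 passed, without Cd replicate 1 EXPA4 alone did, and without each of the others 2 or 3 did. Negative differences numbered 36 to 44 of 52 with 1 library left out.

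Set side by side, 2 of 24 tested XTHs (8.33%), 1 of 15 endoglucanases (6.67%), 0 of 8 beta-galactosidases and 1 of 5 expansins (20.0%) were called lower. The median log2 fold change was -0.25 for XTHs, -0.24 for endoglucanases, -0.041 for beta-galactosidases and -0.32 for expansins. Negative differences made up 19 of 24, 13 of 15, 6 of 8 and 4 of 5, in the same order. Unadjusted p under 0.05 was reached in the lower direction by 8 XTHs (among them BGIOSGA023533), 4 endoglucanases, 1 beta-galactosidase and 2 expansins. That direction and p were reached by 8.06% of all features. No member reached it in the higher direction, against 7.35% of all features. Whether the families differ from each other was not tested. The interval plot shows these differences for each tested gene.

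**Figure D1:**
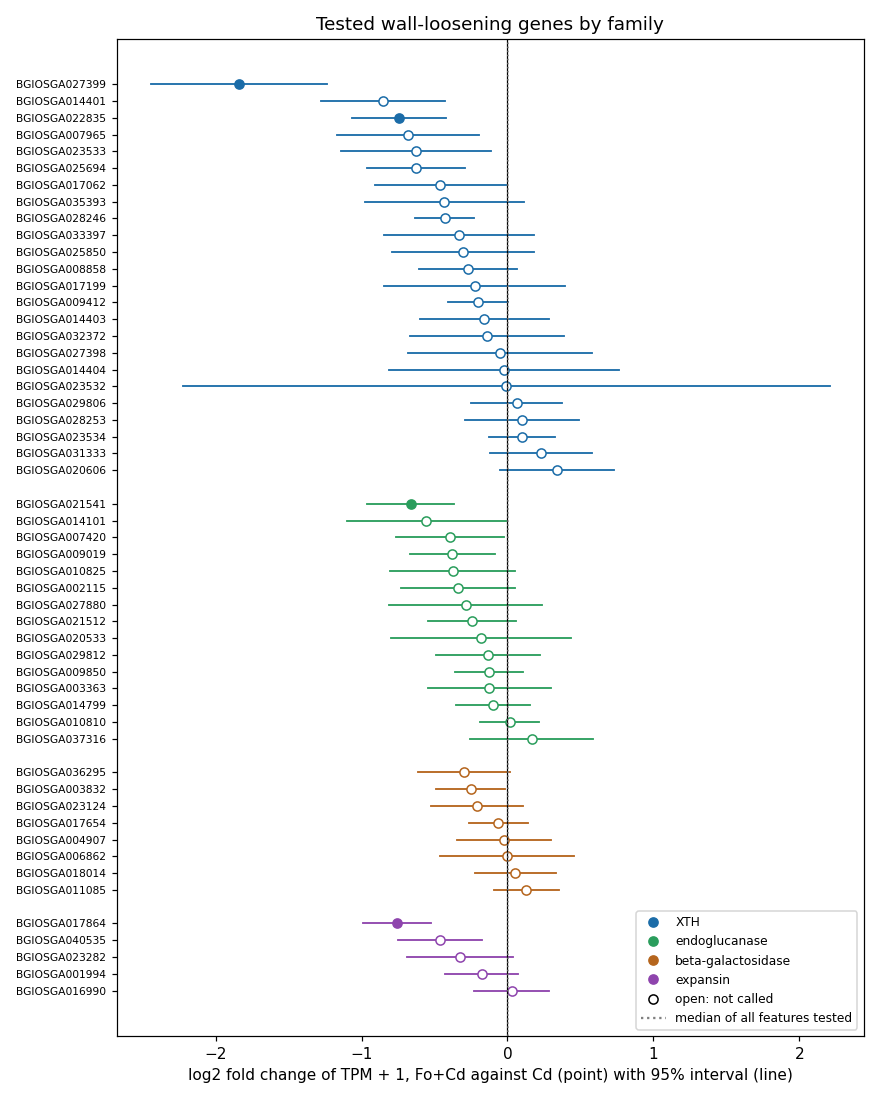
Log2 fold change of TPM + 1 (horizontal axis, Fo+Cd against Cd) for each of the 52 tested genes, grouped by family, with 95% intervals from limma as lines; filled points are the 4 genes called, and the dotted line is the median of all features tested. Most points lie left of 0 (42 of 52), and the beta-galactosidases lie closest to it.

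Among the genes matched by description, XTHs had the highest summed level of the 4 families. The sums depend on how many genes of a family were matched, which was 6 for expansins. Summed over all 30 genes, the level was 1456, 1451 and 1513 TPM in Cd replicates 1, 2 and 3, and 1230, 1178 and 1192 TPM in Fo+Cd replicates 1, 2 and 3. The groups did not overlap, and the Fo+Cd mean was 81.4% of the Cd mean. A single gene, BGIOSGA028246, made up 56.3% of the Cd sum and 51.3% of the Fo+Cd sum. Without it, the sums were 644 ± 2.02 TPM in Cd and 585 ± 43.4 TPM in Fo+Cd (SD, n = 3), or 90.7% of the Cd mean. Endoglucanases summed to 459, 464 and 510 TPM in Cd and 425, 401 and 426 TPM in Fo+Cd. These groups did not overlap either, and the Fo+Cd mean was 87.3% of that in Cd. Expansins summed to 224, 226 and 230 TPM in Cd and 192, 174 and 171 TPM in Fo+Cd, 78.9% of the Cd mean and again without overlap. Beta-galactosidases summed to 302, 320 and 280 TPM in Cd and 268, 305 and 254 TPM in Fo+Cd. Here the groups overlapped, with Fo+Cd replicate 2 above Cd replicates 1 and 3. No test is given for sums over chosen members.

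**Figure D2:**
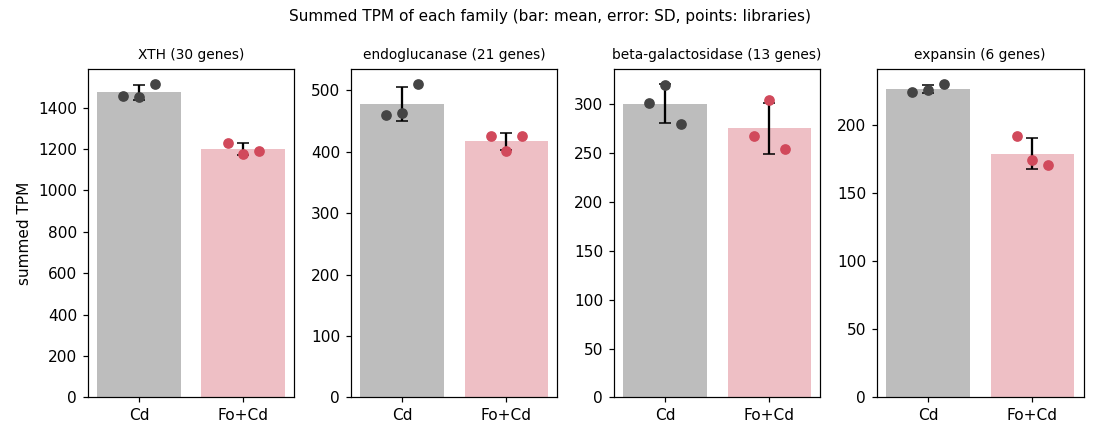
Summed TPM (vertical axis, starting at 0) of the genes of each family in Cd and Fo+Cd; bars are means of 3 libraries, error bars SD, and points single libraries. The groups are apart for XTHs, endoglucanases and expansins, and overlap for beta-galactosidases.

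Among XTHs, the largest difference was that of BGIOSGA027399, a gene of low level. It was at 6, 6.67 and 6.07 TPM in Cd replicates 1, 2 and 3, and at 1.77, 1.14 and 0.39 TPM in Fo+Cd replicates 1, 2 and 3. All Cd libraries were close together and far above every Fo+Cd library, the mean being 5.68-fold lower with Fo10. The log2 fold change was -1.84 (SE 0.256, 95% interval -2.44 to -1.24, adjusted p = 0.0141 in limma). It lost its call without Cd replicate 1 (adjusted p = 0.0536) or Cd replicate 3 (0.0581). The identifier next to it, BGIOSGA027398, also belongs to an XTH. That gene was at 3.02 ± 1.25 TPM in Cd and 2.78 ± 0.648 TPM in Fo+Cd (SD, n = 3), with overlapping groups. How the authors assigned reads among near-identical family members is not given in the sources used here, so values of single XTHs are uncertain to that extent.

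The second XTH called, BGIOSGA022835, was at 33.0, 33.2 and 32.9 TPM in Cd and at 23.3, 19.5 and 15.9 TPM in Fo+Cd, replicates 1 to 3. The Cd libraries were nearly equal, while the Fo+Cd libraries spread more widely, all below them. The mean was 1.69-fold lower (log2 fold change -0.74, SE 0.136, adjusted p = 0.042 in limma). The call was kept without Fo+Cd replicate 1 (adjusted p = 0.0242) and lost without any other single library (0.0765 to 0.141).

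BGIOSGA028246 was the most abundant gene of the 4 families. It was at 810, 808 and 869 TPM in Cd and 596, 626 and 624 TPM in Fo+Cd, replicates 1 to 3. The groups were apart by 183 TPM at their nearest values, and the Fo+Cd mean was 74.2% of the Cd mean. It stood just outside the threshold (log2 fold change -0.43, 95% interval -0.63 to -0.23, adjusted p = 0.0547 in limma). With a library left out its adjusted p was 0.0825 to 0.26, and with the replicate block 0.122. BGIOSGA014401 was at 9.1, 12.0 and 13.9 TPM in Cd and 5.39, 5.41 and 7.13 TPM in Fo+Cd. Its groups were apart too, with an adjusted p of 0.0671 in limma (log2 fold change -0.85). Another 4 XTHs had an unadjusted p under 0.05 without being called, and are named here after their values were seen. BGIOSGA025694 averaged 34.4 ± 3.0 TPM in Cd and 22.1 ± 3.85 TPM in Fo+Cd. BGIOSGA017062 averaged 24.5 ± 1.17 and 18.0 ± 4.96 TPM, BGIOSGA007965 4.69 ± 0.983 and 2.56 ± 0.731 TPM, and BGIOSGA023533 1.48 ± 0.477 and 0.6 ± 0.214 TPM (SD, n = 3). In each of these 4 the highest Fo+Cd library lay below the lowest Cd library. BGIOSGA023533 passed the level filter through the Cd libraries alone.

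The XTHs next in level after BGIOSGA028246 went both ways. BGIOSGA023534 was at 142, 140 and 133 TPM in Cd and 138, 165 and 143 TPM in Fo+Cd (adjusted p = 0.67 in limma, 95% interval of the log2 fold change -0.13 to 0.33). BGIOSGA028253 was at 77.1, 80.4 and 64.9 TPM in Cd and 99.5, 64.8 and 76.8 TPM in Fo+Cd. Its difference was positive at 0.098 on the log2 scale, but negative, at -0.065, without Fo+Cd replicate 1. BGIOSGA031333 was at 57, 70.8 and 58.0 TPM in Cd and 59.3, 82.7 and 77.3 TPM in Fo+Cd (adjusted p = 0.51). The groups overlapped in each of these 3 genes, which follow BGIOSGA028246 in level. The next in level were lower in mean: BGIOSGA035393 (log2 fold change -0.43), BGIOSGA009412 (-0.20) and BGIOSGA025850 (-0.30), none of them called. BGIOSGA009412 averaged 59.6 ± 2.3 TPM in Cd and 51.8 ± 3.87 TPM in Fo+Cd, with groups apart (SD, n = 3; adjusted p = 0.331 in limma). Of the 13 tested XTHs averaging at least 10 TPM, 10 had a negative difference. The one XTH whose Fo+Cd libraries all lay above the Cd libraries was BGIOSGA020606, at 1.14 ± 0.176 TPM in Cd and 1.71 ± 0.17 TPM in Fo+Cd (adjusted p = 0.391).

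Some XTHs varied widely within a group, and 3 are shown for that spread. BGIOSGA023532 was at 0, 6.96 and 0 TPM in Cd and 2.1, 0 and 1.52 TPM in Fo+Cd, so that a single Cd library held all of its Cd signal, and the sign of its difference changed with the pseudocount. BGIOSGA014404 was at 13.2, 15.2 and 12.0 TPM in Cd and 20.3, 7.37 and 15.1 TPM in Fo+Cd. BGIOSGA035393 was at 72.9, 60.6 and 79.0 TPM in Cd and 74.7, 40.9 and 45.7 TPM in Fo+Cd. In both genes Fo+Cd replicate 1 was high and replicate 2 low. The same held more widely: Fo+Cd replicate 1 was the highest of its group in 13 of 24 tested XTHs (54.2%, against 42.4% of all features). Fo+Cd replicate 2 was the lowest of its group in 13 (54.2%, against 36.8%). The median coefficient of variation of tested XTHs was 14.3% in Cd and 20.6% in Fo+Cd.

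**Figure D3:**
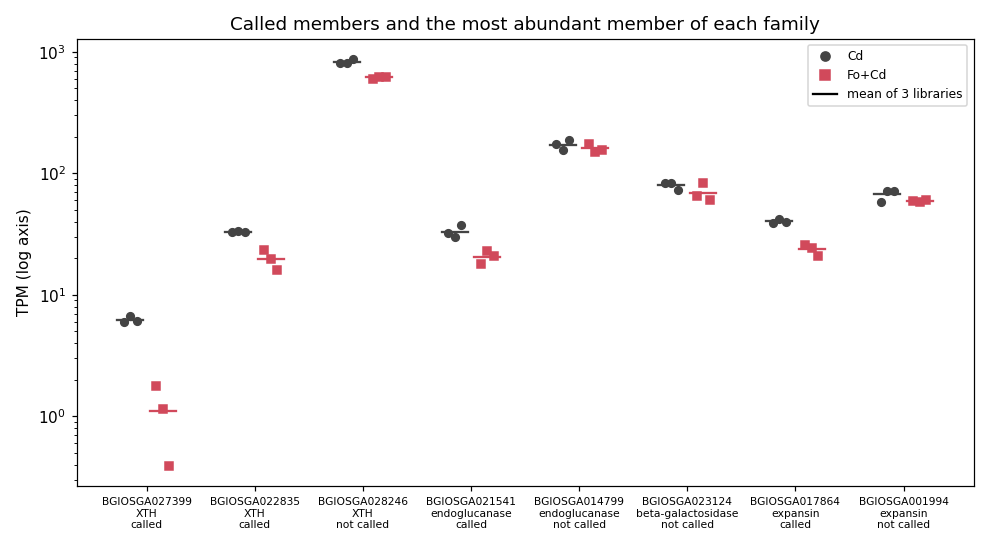
TPM (vertical axis, logarithmic) in each library for the 4 genes called and the most abundant gene of each family; points are libraries and lines means of 3. The called genes and BGIOSGA028246 have every Fo+Cd library below every Cd library, whereas the most abundant endoglucanase, beta-galactosidase and expansin overlap.

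Among endoglucanases, BGIOSGA021541 was called lower. It was at 32.2, 29.6 and 37.3 TPM in Cd and 17.9, 22.7 and 20.9 TPM in Fo+Cd, replicates 1 to 3. The lowest Cd library was above the highest Fo+Cd library, and the mean was 1.61-fold lower (log2 fold change -0.66, SE 0.126, adjusted p = 0.0473 in limma). The call lay near the threshold. It was kept without Cd replicate 2 (adjusted p = 0.0453) and lost without any other single library (0.0663 to 0.16), and also with each library centred on its median ratio (0.0615).

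The next endoglucanases by p did not pass. BGIOSGA009019 was at 52.7, 56.9 and 56.3 TPM in Cd and 36.6, 41.3 and 50.3 TPM in Fo+Cd, groups that do not overlap (log2 fold change -0.38, adjusted p = 0.205 in limma). BGIOSGA014101, annotated from Arabidopsis as endoglucanase 5, was at 10.9, 11.0 and 13.9 TPM in Cd and 10.5, 8.44 and 5.22 TPM in Fo+Cd. Its groups were also apart, but the nearest values differed little (adjusted p = 0.313). BGIOSGA007420 was at 8.1, 6.92 and 8.77 TPM in Cd and 4.99, 5.48 and 7.05 TPM in Fo+Cd, where Fo+Cd replicate 3 lay above Cd replicate 2.

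The endoglucanases of highest level were not called. BGIOSGA014799, which made up 36.0% of the family's Cd sum, was at 173, 155 and 188 TPM in Cd and 174, 150 and 156 TPM in Fo+Cd. BGIOSGA009850 was at 105, 119 and 121 TPM in Cd and 105, 96.6 and 114 TPM in Fo+Cd. Both overlapped between groups, with 95% intervals of the log2 fold change of -0.35 to 0.15 and -0.36 to 0.10. The other 9 tested members averaged 1.17 to 16.1 TPM and had log2 fold changes of -0.38 to 0.17, 7 of them negative, with no unadjusted p under 0.05.

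Beta-galactosidases had the family median nearest to 0. BGIOSGA003832 had the lowest p of the family and was the one member whose groups were apart. It was at 12.4, 13.3 and 12.3 TPM in Cd and 10.8, 10.9 and 9.82 TPM in Fo+Cd, a log2 fold change of -0.25 (adjusted p = 0.293 in limma). The 2 most abundant members were BGIOSGA023124 and BGIOSGA036295. BGIOSGA023124 was at 83.4, 82.5 and 73.2 TPM in Cd and 64.5, 83.2 and 60.4 TPM in Fo+Cd. BGIOSGA036295 was at 79.9, 89.1 and 74.4 TPM in Cd and 57.7, 78.7 and 62.6 TPM in Fo+Cd. In both, Fo+Cd replicates 1 and 3 lay below every Cd library while Fo+Cd replicate 2 lay among them. Fo+Cd replicate 2 was the highest of its group in 6 of 8 tested beta-galactosidases (75.0%), against 25.0% of tested XTHs and 34.8% of all features.

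The remaining beta-galactosidases had overlapping groups. BGIOSGA017654 averaged 47.8 ± 2.68 TPM in Cd and 45.7 ± 2.8 TPM in Fo+Cd, and BGIOSGA011085 42.3 ± 3.65 and 46.3 ± 2.83 TPM (SD, n = 3). Their 95% intervals were -0.27 to 0.14 and -0.095 to 0.35 on the log2 scale. The other 3 tested members, among them BGIOSGA004907, annotated from the Arabidopsis BGAL10 protein that acts on xyloglucan, had log2 fold changes between -0.021 and 0.054.

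Of the expansins, EXPA4 (BGIOSGA017864), an alpha-expansin, had the smallest p of all 52 members. It was at 39.2, 42.3 and 39.9 TPM in Cd and 25.5, 24.4 and 20.9 TPM in Fo+Cd, replicates 1 to 3. Both groups were tight and far apart, the mean being 1.71-fold lower (log2 fold change -0.76, SE 0.0979, 95% interval -0.99 to -0.53, adjusted p = 0.0108 in limma). Its call was lost without Cd replicate 3 (adjusted p = 0.0513) and kept without each of the other libraries (0.023 to 0.0437).

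BGIOSGA040535, annotated from Arabidopsis as expansin-A11, was at 73.1, 60.9 and 70.7 TPM in Cd and 57.0, 44.7 and 46.4 TPM in Fo+Cd. The groups did not overlap, and it was not called (log2 fold change -0.46, 95% interval -0.75 to -0.18, adjusted p = 0.125 in limma). BGIOSGA023282, annotated as expansin-A20, was at 21.4, 24.1 and 17.1 TPM in Cd and 16.5, 18.6 and 14.1 TPM in Fo+Cd, with overlap. The most abundant expansin, BGIOSGA001994, is described as acting in cell extension and root system architecture. It was at 57.8, 72.0 and 72.0 TPM in Cd and 59.4, 57.6 and 60.3 TPM in Fo+Cd, so that Cd replicate 1 lay among the Fo+Cd libraries.

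BGIOSGA016990, described as an aluminium-inducible expansin of root cell elongation, had overlapping groups. It was at 32.9, 26.7 and 30.7 TPM in Cd and 33.9, 29.0 and 29.2 TPM in Fo+Cd, with a log2 fold change of 0.029 (95% interval -0.23 to 0.29). Its small difference was negative without Cd replicate 2 (-0.050) or Fo+Cd replicate 1 (-0.041). The sixth expansin, BGIOSGA037542, described as alpha expansin 26, was listed at 0 in every library.

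**Figure D4:**
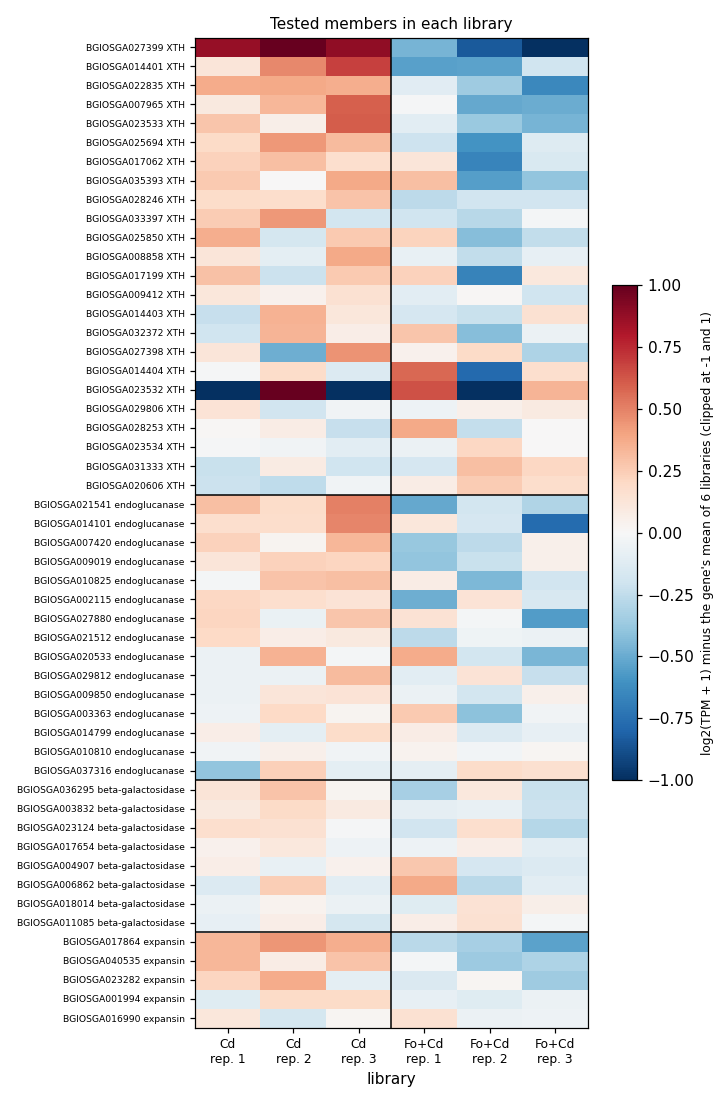
Deviation of log2(TPM + 1) from each gene's mean of 6 libraries (colour, clipped at -1 and 1) for the 52 tested genes (rows, by family) in each library (columns). Rows are sorted within each family by log2 fold change, the most negative on top. By this ordering the upper rows of a block are those highest in Cd relative to Fo+Cd. Among XTHs, Fo+Cd replicate 2 stands lowest.

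Across libraries, the median deviation of the 52 tested members from each gene's mean was 0.12, 0.16 and 0.13 on the log2 scale in Cd replicates 1 to 3. In Fo+Cd replicates 1 to 3 it was -0.058, -0.18 and -0.12. Over all features these medians lay between -0.013 and 0.036. Every Cd library was thus above, and every Fo+Cd library below, 0 for the median of the 52 members together. This did not hold for beta-galactosidases alone, with medians of -0.034 in Cd replicate 3 and 0.086 in Fo+Cd replicate 2. The lowest single median was that of XTHs in Fo+Cd replicate 2, at -0.36. Of the 34 tested members averaging at least 10 TPM, 28 were negative (82.4%, against 49.0% of all features at that level).

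The 18 members that did not reach the level for testing were 6 XTHs, 6 endoglucanases, 5 beta-galactosidases and 1 expansin. A member of each family but the XTHs, 3 in all, was listed at 0 in every library. No value among the other 15 exceeded 1.09 TPM. Their mean was lower in Fo+Cd in 10 and higher in 5.

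Other wall genes were found by their descriptions in 8 lists. Of 118 tested, 2 were called lower (1.69%, against 0.723% of all features) and 1 higher (0.847%, against 1.72%). The higher call and 1 of the lower calls have descriptions that cite no database. Of tested genes so described, 206 of 226 were called, so these shares are not independent of the calls. A negative difference was found in 84 of the 118 (71.2%, against 49.6%), and the median log2 fold change was -0.10. Unadjusted p under 0.05 in limma was reached by 17 in the lower direction, where 8.06% of all features reached it. In the higher direction 3 reached it, against 7.35% of all features. Of 26 genes of pectin modification (pectinesterases, pectin acetylesterases and pectate lyases) none was called in limma, and 4 had an unadjusted p under 0.05, all lower. The smallest p among them was that of the pectin acetylesterase BGIOSGA000344, at 8.67, 10.8 and 9.46 TPM in Cd and 5.23, 6.41 and 5.81 TPM in Fo+Cd (adjusted p = 0.0607). Of 13 genes of cellulose and hemicellulose synthesis none was called, with 3 at an unadjusted p under 0.05, all lower. Among them the COBRA-like protein 5 gene BGIOSGA012871, of a family needed for oriented cellulose deposition, was at 19.0, 17.6 and 23.6 TPM in Cd and 12.0, 12.1 and 13.3 TPM in Fo+Cd (adjusted p = 0.0565). It passed without Cd replicate 2 (adjusted p = 0.0439 in limma), where 1.77% of all features were called lower. Without any other single library it did not pass (0.126 to 0.16).

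The 58 tested genes of pectin and xylan synthesis held 1 fall and 1 rise. BGIOSGA000733, described as a beta-glucuronosyltransferase, an enzyme that acts on arabinogalactan glycans in Arabidopsis, fell from 5.61, 5.02 and 7 TPM in Cd to 0.59, 1.47 and 1.42 TPM in Fo+Cd, a log2 fold change of -1.69 (adjusted p = 0.0117 in limma). Without Cd replicate 3 its adjusted p was 0.0541. BGIOSGA033690, described as a galacturonosyltransferase, rose from 0.58, 1.84 and 0.39 TPM to 38.9, 29.9 and 22.7 TPM (log2 fold change 4.06, adjusted p = 0.00112). Neither description cites a database, and 206 of 226 tested genes so described were called, so these descriptions are not independent of the calls. All 70 members have a description that cites one.

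Of 9 other wall glycosidases, a gene described as a mannan endo-beta-mannosidase (BGIOSGA019613) fell from 4.57, 4.14 and 4.48 TPM to 2.18, 2.47 and 2.36 TPM (adjusted p = 0.0478 in limma). Its call was lost without any one library (0.0673 to 0.196). All 7 tested genes described as acting on xyloglucan side chains or as fucosyltransferases had negative differences, 2 with an unadjusted p under 0.05 and none called. BGIOSGA029071, described as an O-fucosyltransferase, had the smallest p of these, at 15.1 ± 1.9 TPM in Cd and 11.8 ± 0.512 TPM in Fo+Cd (adjusted p = 0.237). Neither of the 2 arabinogalactan proteins was called, 1 having an unadjusted p under 0.05. That was BGIOSGA014904, of the fasciclin-like type, at 10.4, 7.13 and 11.7 TPM in Cd and 4.37, 5.05 and 2.87 TPM in Fo+Cd (adjusted p = 0.0696 in limma). Its adjusted p was 0.0381 without Cd replicate 2, and 0.0902 to 0.232 without each of the other libraries. Neither of the 2 callose synthases nor the 1 extensin-like gene was called or reached an unadjusted p under 0.05. The callose synthase BGIOSGA022076 averaged 40.9 ± 3.26 TPM in Cd and 46.5 ± 1.68 TPM in Fo+Cd, and the extensin-like gene BGIOSGA007164 9.87 ± 1.2 and 8.28 ± 2.55 TPM.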

How the data were processed

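The deposited table holds the TPM of 42031 features in each of 6 root libraries. TPM was recognised from the values. Per the labels' protocols, stranded libraries were made from 1 µg of total RNA. Which aligner, counting program and genome build were used is not given in the sources used here, and the table holds no positions. The authors' 2 columns of group means equal the means of the libraries (largest difference 3.3e-07 TPM) and were not used.

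Values were taken as log2(TPM + 1). The 21166 features that reached 1 TPM in 3 or more of 6 libraries were tested with limma 3.58.1 in R 4.3.3 (trend and robust empirical Bayes, no covariate), Benjamini-Hochberg adjusted over all of them. The filter was kept when a library was left out. Other steps used numpy 2.4.6 and pandas 2.3.3 (Python 3.11.15). TPM holds no depth, so no counting intervals were computed. Replicate numbers were not taken as pairs, since the labels do not say that equal numbers pair libraries.

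The members and lists were chosen with earlier results of these data known. Named with values were all members called and, per family, the 4 with the smallest p and the 4 of highest mean level; of each other wall list, the genes called or else the one with the smallest p. A further 12 tested members, 11 XTHs and the beta-galactosidase BGIOSGA004907, and the untested expansin BGIOSGA037542 fall outside this rule and were named after their values were seen. Patterns for root silicon and cadmium transport genes matched no feature (0 genes). Alternatives were other pseudocounts (0.1 and 0.5 TPM), filters, scalings and limma settings, a replicate block, descriptions citing a database (all 70 members do), and leaving out each library.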

Additional observations from a re-analysis of the deposited data

How the results depend on the processing

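The 4 members called became 2 with no filter beyond a value above 0, 2 without trend and robust settings, and 2 with the replicate block; they were 0 to 3 with 1 library left out. In each of these fits the calls came from the same 4 genes. The XTH count of 2 became 1 with no filter, without trend and robust settings and with the replicate block, where BGIOSGA022835 lost its call. With a mean of at least 5 TPM the count was also 1, because BGIOSGA027399, averaging 3.67 TPM, was not tested. With a library left out the XTH count was 0 to 2. The endoglucanase count of 1 became 0 with a pseudocount of 0.1 TPM, no filter, median centring, quantile normalization, no trend and robust settings, or the replicate block, and was 0 to 1 with a library left out. The expansin count of 1 was 0 to 1. Over all features 518 were called, 240 to 735 with a library left out and 353 with the replicate block. Without Cd replicate 2, 49.1% of the calls were higher, against 70.5% with all libraries. The endoglucanase median moved to -0.36 with a pseudocount of 0.1 TPM. With a library left out, medians were -0.44 to -0.22 for expansins, -0.35 to -0.19 for XTHs, -0.27 to -0.19 for endoglucanases and -0.16 to 0.0080 for beta-galactosidases. The causes were not tested.

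Libraries of equal replicate number had deviations correlated at -0.033, 0.085 and 0.073, and those of unequal number at -0.12 to 0.069. With 3 libraries per group these values cannot decide whether the numbers mark pairs. The labels do not say so, and the replicate block was therefore an alternative. Of 608 values for the 44 genes named (32 by rule, 12 outside it), 561 kept their direction and side of the threshold. Most of these genes were uncalled with all libraries and had no call to lose, so this count says little about the calls. In 31 values a call was lost, and in 2 a call was gained. Of the lost calls, 11 were of BGIOSGA021541, 8 of BGIOSGA022835 and 8 of BGIOSGA019613. The 14 that changed sign came from uncalled genes. BGIOSGA023532 went from -0.0090 to 0.78 and 0.16 with pseudocounts of 0.1 and 0.5 TPM. With a library left out, log2 fold changes were -0.065 to 0.24 for BGIOSGA028253, -0.050 to 0.093 for BGIOSGA016990, -0.51 to 0.99 for BGIOSGA023532, -0.31 to 0.36 for BGIOSGA014404, -0.31 to 0.16 for BGIOSGA027398 and -0.16 to 0.057 for BGIOSGA004907. TPM gives no depth, so how far low values are limited by counting is unknown.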
